A study of Mus musculus with 4 samples.

Results

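The translation initiation factors were taken as every gene of the count table whose name starts with *Eif* and a digit from 1 to 6, without names that begin with *Eif2ak*, *Eif2s3* or *Eif4ebp*. The rule found 56 of 46095 gene names and left out 10 of 66 such *Eif* names. It used names only and no measured value. Of the 56 members, 46 are factors with a role in initiation or a closely related step, and 10 are pseudogenes or other names. RNA of the stomach was sequenced in 2 samples from WT and 2 from *Atp4b-cre;MycOE* mice at 12 weeks of age on a C57BL/6 background, and the comparison asks how the overexpression of *c-Myc* changes gastric transcripts. WT mice were *Myc* fl/fl littermates, which carry the silent transgene without Cre, and the *Atp4b-cre;MycOE* mice (labelled MYC-KI, called *c-Myc* transgenic here) carried *Atp4b-cre* and 1 floxed *Myc* allele. The *Atp4b* promoter drives Cre in the parietal cell lineage, whereas RNA came from stomach tissue with all of its cell types. The series' design speaks of triplicates, and 2 samples per genotype were analysed here.

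Translation of most mRNAs begins when eIF4E binds the 5′ cap, eIF4G bridges the cap to the ribosome, and the helicase eIF4A unwinds the leader. eIF2 brings the initiator tRNA to the small ribosomal subunit, eIF2B reloads eIF2 with GTP after each round, and eIF3 holds the assembly together. eIF1, eIF1A, eIF5 and eIF5B select the start codon and join the large subunit. c-MYC, a transcription factor that binds the E-box CACGTG, is known to raise the protein-making capacity of cells, and *Eif4e* is among its textbook targets.

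The E-box was therefore looked for in promoter windows of the members, which reach from 250 bases before to 50 bases after the transcription start and come from RefSeq on GRCm38.p6. CACGTG reads the same on both strands, and no other motif was searched. Among the 45 members with a role that could be tested for expression, 36 had a window (80.0%), and 10 of these 36 held the motif (27.8%). Over all 27025 genes with a window the share was 8.09%, and over the 12326 tested genes with a window it was 10.8%. Only 69.9% of all tested genes, 72.0% of all tested members and 66.1% of all 56 members had a window, which is under the 80% required here, so the shares are given as descriptions and not compared. The factors with the motif were *Eif4e*, *Eif4a1*, *Eif4g1*, *Eif4h*, *Eif3a*, *Eif3f*, *Eif3k*, *Eif1b*, *Eif5a* and *Eif5a2*. The windows of the cap-binding protein, the helicase, the scaffold and the helicase cofactor are shown because they cover the parts of the cap complex. The motif is in capitals, each line is 30 bases read 5′ to 3′ on the strand of the gene, and the distance counts from the start site to the first base of the motif.

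*Eif4e*, chr3:138527028-138527057, plus strand, -228: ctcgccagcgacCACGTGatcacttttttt
*Eif4e*, chr3:138527192-138527221, plus strand, -64: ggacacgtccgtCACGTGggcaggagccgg
*Eif4a1*, chr11:69672595-69672624, minus strand, -189: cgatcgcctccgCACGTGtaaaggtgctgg
*Eif4g1*, chr16:20672661-20672690, plus strand, -54: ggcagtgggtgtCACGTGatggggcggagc
*Eif4g1*, chr16:20672730-20672759, plus strand, 16: ctctgcgccggtCACGTGgggcgctggctg
*Eif4h*, chr5:134639488-134639517, minus strand, -96: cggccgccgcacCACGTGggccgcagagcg

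These matches describe letters in a window and not occupied sites. Of the role-bearing members that passed the expression test on adjusted p, 2 of 13 with a window held the motif (15.4%), and of those that did not pass 8 of 23 did (34.8%). Only 13 of the 17 that passed (76.5%) had a window, so this split was not used as a comparison either.

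The libraries held 30260305 to 41463647 counts. As deposited, the names and the transgenic counts were out of register, with a Pearson r of 0.524 between the genotypes over all 46095 rows of log2(count + 1). With both transgenic columns assigned in row order to the names sorted by character code, r was 0.985, against 0.986 for the WT pair and 0.983 for the transgenic pair. All values below come from the re-sorted table. The name of 45 members stood at the same place in both orders, so their counts do not depend on the re-sorting, and 11 members changed place. Around each member, r over 61 rows was 0.969 to 0.986 after re-sorting and 0.683 to 0.983 as deposited. The mouse *Myc* row does not check the genotype, because the transgene is human *c-Myc*. It held 1062 and 759 counts in WT mice, and 735 and 1091 in those with the transgene, with a log2 fold change of -0.35 (SE 0.14, adjusted p = 0.163 by edgeR's quasi-likelihood test). The libraries stand apart in sex-marking genes. *Eif2s3y*, the Y-linked copy of the eIF2 gamma subunit, had 8 counts in WT replicate 2 and 1286 to 1669 in the other samples, and so the WT pair mixes what look like different sexes.

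A minority of the initiation factors rose in *c-Myc* transgenic stomach, most of them by less than 2-fold, and the others did not pass the test. Of the 50 members with enough counts to be tested, 12 (24.0%) rose and 0 fell in edgeR's quasi-likelihood test, where a gene had to reach an adjusted p under 0.05 and differ by more than 1.5-fold, the thresholds of the study. Over all 17643 tested genes, 5.65% rose and 5.08% fell by the same rule, and 10.7% passed in either direction (996 higher and 896 lower). With library size alone for scaling, 75.5% of 3011 calls over all genes were higher and 24 members were called, with the median log2 fold change of all genes at 0.23. In the unadjusted edgeR test 33 members were higher and 2 lower at p under 0.05, and 3130 and 2894 of the 17643 genes were. DESeq2 called 13 members higher and 0 lower, and 1500 and 1711 of those genes. Without the fold threshold 18 members rose and 0 fell in edgeR, against 6.98% and 5.91% of all tested genes, and 27 rose and 1 (*Eif3c*) fell in DESeq2, against 11.6% and 12.4% of the 18257 genes with an adjusted p there. The median log2 fold change of the members was 0.38, whereas that of all tested genes was 0.01. It was above 0 in 43 of 50 members and in 50.9% of all tested genes.

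Both transgenic samples lay above both WT samples for 39 of the 50 tested members, and this held for 33.3% of all tested genes. They lay below for 4 members, *Eif3c*, *Eif3j1*, *Eif4a2* and *Eif4g2*, and for 31.5% of all tested genes. Since the factors are abundant, the 38 members with an average log2 CPM (counts scaled to library size) of at least 5 were set beside 6196 genes at that level. There 10 of the 38 rose and 0 fell, against 7.83% and 6.26% of those genes, and without the fold threshold 16 rose and 0 fell, against 11.5% and 8.55%. All 12 calls rest on both WT samples: without WT replicate 1 or without WT replicate 2, 0 members and 0 of all tested genes passed in edgeR, while 24 and 20 members had an unadjusted p under 0.05, as did 19.4% and 18.3% of all genes in those fits. Without transgenic replicate 1 or 2, 12 and 11 members were called, all higher, against 4.2% and 5.8% of the genes tested in those fits. The median log2 fold change stayed at 0.38 without WT replicate 2, the sample that stands apart in sex-marking genes.

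**Figure D1:**
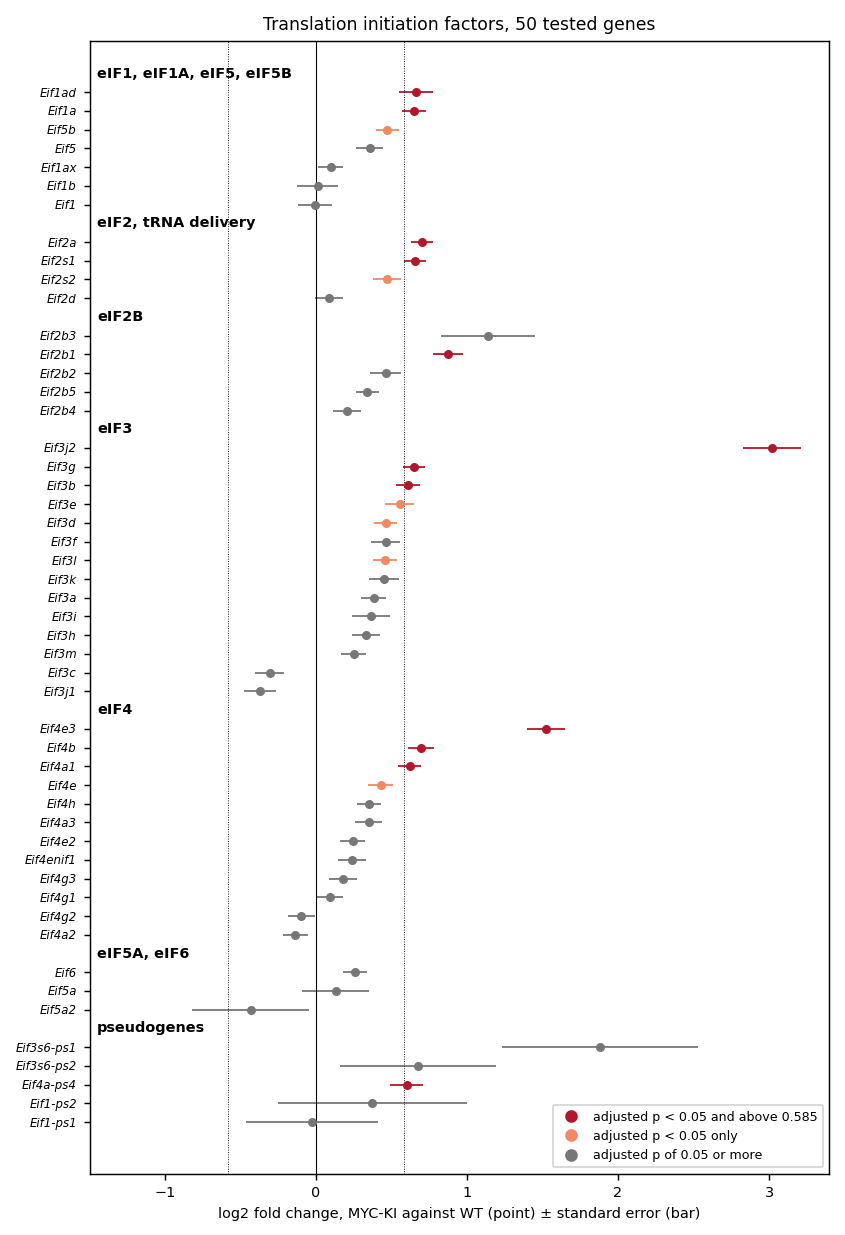
Log2 fold change (*c-Myc* transgenic over WT) of the 50 tested members, grouped by role, with the tested pseudogenes as the last group. Points are edgeR estimates and bars are 1 standard error, with 2 samples per genotype. Most points lie to the right of 0, and *Eif3j2* (3.02), the pseudogene *Eif3s6-ps1* (1.88) and *Eif4e3* (1.52) lie farthest.

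In the cap-binding group (eIF4) the log2 fold changes ran from -0.14 to 1.52. Of its 12 tested factors, 3 were called higher (*Eif4e3*, *Eif4b*, *Eif4a1*), *Eif4e* passed on adjusted p alone, and the median was 0.30. In the following, values in pairs are TMM-normalized CPM of replicate 1 and replicate 2, and adjusted p-values are from edgeR's quasi-likelihood test over all 17643 genes.

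*Eif4e*, the cap-binding protein that limits initiation in many cells, stood at 82.1 and 79.9 in WT and at 113.4 and 104.9 in transgenic stomach. The genotypes did not overlap. The log2 fold change was 0.43 (SE 0.083, adjusted p = 0.0457), which is under the fold threshold. *Eif4e3*, which encodes a second type of cap-binding protein, was at 13.3 and 12.7 in WT and at 35 and 39.7 in transgenic samples. Its log2 fold change of 1.52 (SE 0.13, adjusted p = 0.0176), or 2.87-fold, was the second largest among called members. *Eif4e2*, which encodes a cap-binding protein known to repress translation, had a log2 fold change of 0.24 (adjusted p = 0.121), and *Eif4e1b*, a germ-line form, had 0 counts in all samples, where a count of 0 allows up to 3 counts per sample.

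Among the helicases, *Eif4a1* rose and *Eif4a2* did not. *Eif4a1* was at 120.1 and 114.8 in WT and at 182.8 and 178.1 in transgenic samples (log2 fold change 0.62, SE 0.078, adjusted p = 0.0251). *Eif4a2*, its close paralog, was at 325.2 and 343.2 in WT and at 308.1 and 299.1 in transgenic samples, a log2 fold change of -0.14 (adjusted p = 0.313) that turned to 0.08 when only library size was used for scaling. *Eif4a3*, which belongs to the exon junction complex, had a value of 0.35 (adjusted p = 0.0734). *Eif4b*, which stimulates eIF4A, was the most abundant of the called members in CPM, at 370.4 and 364.5 in WT and 577.6 and 611.6 in transgenic samples. Both transgenic samples exceeded both WT samples, and the log2 fold change was 0.69 (SE 0.086, adjusted p = 0.0244). *Eif4h*, a related cofactor, had a value of 0.35 (adjusted p = 0.0611).

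*Eif4g1*, the main scaffold, was at 715.5 and 724.7 in WT and at 754.0 and 784.1 in transgenic samples (log2 fold change 0.09, adjusted p = 0.497). *Eif4g2*, a scaffold that lacks the eIF4E-binding part, was at 993.3 and 962.1 in WT and at 913.8 and 915.0 in transgenic samples (-0.10, adjusted p = 0.497), and its sign changed to 0.13 with library size alone. *Eif4g3* had a value of 0.18 (adjusted p = 0.248), and *Eif4enif1*, which encodes an eIF4E transporter, 0.24 (adjusted p = 0.155).

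**Figure D2:**
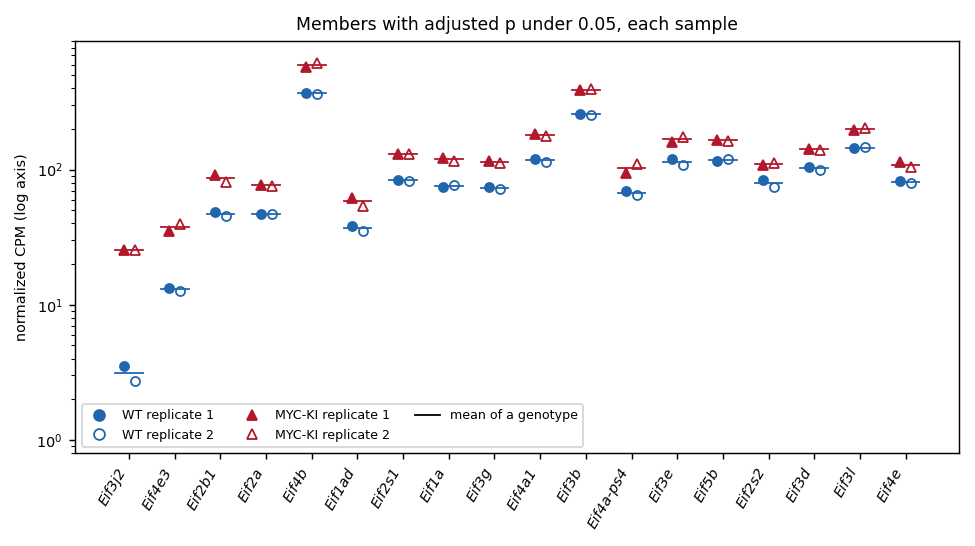
TMM-normalized CPM (log axis) in each of the 2 WT and 2 *c-Myc* transgenic samples for the 18 members with an adjusted p under 0.05; each point is 1 sample. In every one of these members both transgenic points lie above both WT points.

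In the eIF3 complex, which coats the small subunit, 3 of 14 tested genes were called higher, 6 passed on adjusted p, and the median was 0.45. *Eif3b*, a core subunit, was at 257.6 and 255.5 in WT and at 389.2 and 393.1 in transgenic samples (log2 fold change 0.61, SE 0.078, adjusted p = 0.0255). *Eif3g*, which works with the core in scanning, was at 73.8 and 72.4 and at 116.1 and 113.0 (0.65, SE 0.074, adjusted p = 0.0226). The gap between the genotypes was many times the gap between replicates for both.

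Of the other subunits, *Eif3e* was at 120.2 and 108.2 in WT and at 161.5 and 173.6 in transgenic samples (0.55, adjusted p = 0.0387). *Eif3d*, whose product can bind the cap of some mRNAs, was at 104.7 and 100.1 and at 141.6 and 140.6 (0.46, adjusted p = 0.0356). *Eif3l* was at 144.1 and 147.6 and at 195.0 and 204.9 (0.46, adjusted p = 0.0383). These passed on adjusted p and stayed under the fold threshold. *Eif3a*, *Eif3f*, *Eif3h*, *Eif3i*, *Eif3k* and *Eif3m* had log2 fold changes of 0.25 to 0.46 with adjusted p-values of 0.0539 to 0.128. *Eif3m* changed least, from 76.3 and 78.4 to 88.4 and 95.4 (0.25, adjusted p = 0.116). *Eif3c*, by contrast, was at 354.3 and 333.5 in WT and at 263.9 and 292.3 in transgenic samples, a log2 fold change of -0.31 (SE 0.097) with an adjusted p of 0.108 in edgeR and of 0.0432 in DESeq2.

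The largest change of any member was in *Eif3j2*, a copy of *Eif3j1*, which encodes the loosely bound subunit at the mRNA entry channel. Raw counts of *Eif3j2* were 118 and 76 in WT and 860 and 1134 in transgenic samples, which gives 3.52 and 2.72 against 25.4 and 25.4 CPM (log2 fold change 3.02, SE 0.19, adjusted p = 0.0140). *Eif3j1* was at 28.3 and 27.3 in WT and at 21.8 and 21.2 in transgenic samples (-0.37, SE 0.11, adjusted p = 0.0928). The genes share sequence: 87.4% of the 75-base windows of *Eif3j2* transcripts also occur in *Eif3j1*, and 35% of those of *Eif3j1* occur in *Eif3j2*. How reads were split between them is uncertain, and the value of either alone with it. Their summed counts were 1067 and 838 in WT and 1599 and 2080 in transgenic samples, a log2 fold change of 0.60 (SE 0.089, adjusted p = 0.0316). This sum was added after the data were seen.

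A like doubt touches *Eif4a-ps4*, a processed pseudogene on chr1:60703932-60705149, plus strand (GRCm38, GENCODE M21), of which 93.4% of windows occur in *Eif4a1*. It was at 69.6 and 65.1 in WT and at 94.4 and 109.9 in transgenic samples (0.60, SE 0.11, adjusted p = 0.0407), and its sum with *Eif4a1* had a log2 fold change of 0.61 (SE 0.082, adjusted p = 0.0275). Only these copies, *Eif3j2* and *Eif4a-ps4*, shared over 50% of their windows with other genes among the members.

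Of the 4 factors that deliver the initiator tRNA, 3 rose on adjusted p, 2 of them past the fold threshold, and the median was 0.56. *Eif2s1*, the alpha subunit of eIF2 on which stress kinases act, was at 83.7 and 82.8 in WT and at 131.5 and 130.4 in transgenic samples (0.65, SE 0.073, adjusted p = 0.0216). *Eif2s2*, the beta subunit, was at 83.7 and 74.7 and at 107.4 and 111.9 (0.47, SE 0.093, adjusted p = 0.0481). The subunits thus rose by 1.57-fold and 1.38-fold. *Eif2s3x*, the X-linked gamma subunit, which the rule leaves out, had a log2 fold change of 0.12 (SE 0.17, adjusted p = 0.664). It was at 37.6 and 51.8 in WT and at 48.7 and 48.7 in transgenic samples. The higher WT value is from replicate 2, the sample that stands apart in sex-marking genes, and the part of sex in this value was not tested.

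Outside the eIF2 complex, *Eif2a*, an alternative carrier of the initiator tRNA, was at 47.2 and 46.7 in WT and at 76.7 and 76.0 in transgenic samples (0.70, SE 0.072, adjusted p = 0.020). *Eif2d*, another alternative carrier, was at 41.5 and 39.2 and at 44.7 and 41 (0.09, adjusted p = 0.577), and its genotypes overlapped in range.

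All 5 subunits of eIF2B lay higher in both transgenic samples than in both WT samples, with a median log2 fold change of 0.46, and 1 of the 5 was called. This was *Eif2b1*, the alpha subunit, at 48.9 and 45.3 in WT and 91.3 and 81.6 in transgenic samples (0.87, SE 0.097, adjusted p = 0.0213). *Eif2b3*, the gamma subunit, had the larger fitted change, from 8.97 and 5.23 to 16.7 and 14.6 (1.14, SE 0.31), with an adjusted p of 0.0828 in edgeR and of 0.00709 in DESeq2. Leaving out 1 sample at a time moved the value between 0.80 and 1.58. *Eif2b2*, *Eif2b5* and *Eif2b4* had values of 0.46, 0.34 and 0.21 (adjusted p = 0.0566, 0.0586 and 0.193), the last from 33.6 and 33.0 to 38.9 and 37.8.

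Among the start codon and subunit joining factors, 2 of 7 were called and 3 passed on adjusted p. *Eif1a*, which encodes a form of eIF1A, was at 75 and 77.0 in WT and at 122.9 and 115.8 in transgenic samples (0.65, SE 0.079, adjusted p = 0.0236). *Eif1ad*, named for its eIF1A-like domain, was at 38.6 and 35.1 and at 62.2 and 54.2 (0.66, SE 0.11, adjusted p = 0.0378). Both of these changed place in the re-sorting, as did *Eif4a1* and *Eif4a-ps4*, so the rise of these 4 depends on it, and the other 8 called members kept their place. *Eif5b*, the GTPase that joins the subunits, kept its place and was at 116.5 and 120.7 and at 165.4 and 163.6 (0.47, SE 0.076, adjusted p = 0.0343).

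*Eif1*, which guards start codon choice, was at 305.1 and 264.2 in WT and at 272.1 and 295.1 in transgenic samples, so that the WT samples enclosed the transgenic ones (log2 fold change -0.01, adjusted p = 0.979, and 0.22 with library size alone). *Eif1b* and *Eif1ax* had values of 0.01 and 0.10 (adjusted p = 0.961 and 0.464), and *Eif5*, which triggers GTP hydrolysis by eIF2, 0.35 (adjusted p = 0.0732).

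The group of eIF5A and eIF6 gave 0 calls among 3 tested genes in edgeR and in DESeq2, with 1 at an unadjusted p under 0.05 in edgeR. *Eif6*, which keeps the large subunit free until joining, was at 135.0 and 129.8 in WT and at 163.0 and 153.6 in transgenic samples (0.26, adjusted p = 0.108). *Eif5a* was at 11.3 and 8.24 and at 10.9 and 10.5 (0.13, adjusted p = 0.722), and *Eif5a2* at 4.14 and 2.69 and at 2.03 and 3.02 (-0.43, adjusted p = 0.489). The genotypes overlapped for *Eif5a2*, and leaving out 1 sample at a time moved its value from -0.09 (without WT replicate 1) to -0.75 (without transgenic replicate 2). For *Eif5a* the value moved from 0.38 (without WT replicate 1) to -0.08 (without WT replicate 2), so its sign is not fixed.

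Ratios of paralogs within a sample need no scaling between samples. In 8 of 10 pairs the genotypes did not overlap. *Eif4a1*, *Eif4e* and *Eif4g1* each stand in 2 pairs, so the pairs are not independent. No share was computed for ratios of other genes, so the count has no background. Of all tested genes taken singly, 33.3% lay higher and 31.5% lower without overlap. With 2 samples against 2, an exact two-sided permutation p cannot be below 0.333, the value of each of the 8 pairs (0.417 after adjustment over the 10 pairs). The ratio of *Eif4a1* to *Eif4a2* counts was 0.369 and 0.334 in WT and 0.593 and 0.595 in transgenic samples. That of *Eif4e* to *Eif4e3* fell from 6.16 and 6.30 to 3.24 and 2.64. That of *Eif1a* to *Eif1ax* was 1.38 and 1.31 in WT and 2.06 and 1.89 in transgenic samples. The ratio of *Eif3j1* to *Eif3j2* was 8.04 and 10 in WT and 0.859 and 0.834 in transgenic samples. In the last pair the order of the copies was thus turned around, within the limit that their reads are hard to tell apart. The ratios of *Eif4g1* to *Eif4g3* and of *Eif1* to *Eif1b* overlapped between the genotypes.

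**Figure D3:**
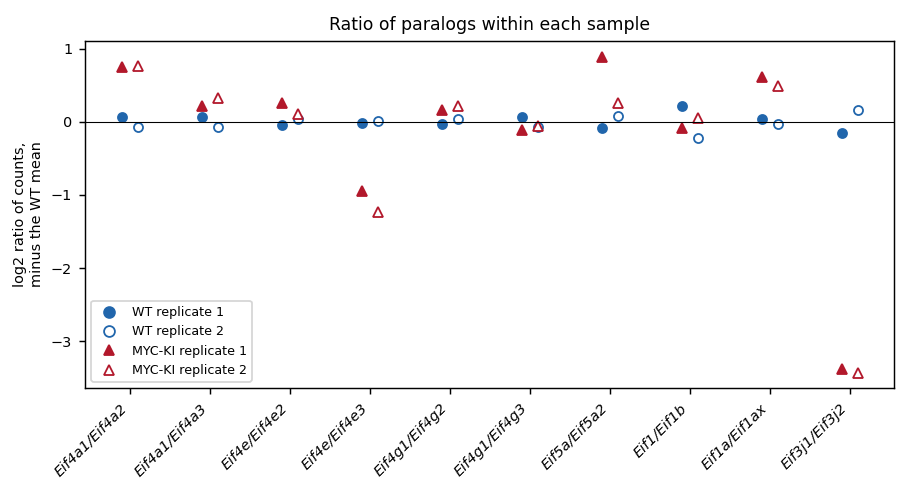
Within-sample log2 ratio of raw counts, minus the WT mean of the pair, for 10 paralog pairs in 2 WT and 2 *c-Myc* transgenic samples. Each point is 1 sample. The genotypes are separate in 8 pairs, a count without a background share from other gene pairs. *Eif3j1/Eif3j2* shows the widest gap, a difference of -3.41 between the means.

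Per kilobase of exon (CPM divided by the length of the joined exons), *Eif1* led in both genotypes, at 135.7 ± 13.8 in WT and 135.2 ± 7.75 in transgenic samples (mean ± SD, n = 2). *Eif4b* went from 82.2 ± 0.940 to 133.1 ± 5.38 and so from rank 6 to rank 2. In WT *Eif4g1* (98.6), *Eif3c* (97.9), *Eif3h* (97.8) and *Eif4g2* (96.2) lay within the spread of the replicates of *Eif3c*. *Eif4a2* (62.6 in WT and 56.9 in transgenic samples) stayed above *Eif4a1* (27.1 and 41.6) in both. *Eif4e3* had 5.17 in WT and 14.9 in transgenic samples, near *Eif4e* at 18.2 there. *Eif5a* was low, at 4.12 and 4.50.

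The other genes of the pathway were described in 4 lists. Over all tested genes, 5.65% were called higher and 5.08% lower. Elongation and termination factors had the highest median of the 4: 5 of 13 were called higher, all 13 fitted values were above 0, and the median log2 fold change was 0.58. *Eef1b2* (0.95, adjusted p = 0.0198) and *Eef1g* (0.88, adjusted p = 0.020), parts of the exchange factor for eEF1A, rose, as did *Eef2*, the translocase (0.60, adjusted p = 0.0462). *Eef1e1* (1.02, adjusted p = 0.0324) rose too, although its product is known as a partner of tRNA synthetases. *Dohh*, which completes the hypusine of eIF5A, rose from 42.7 and 46.5 to 72.5 and 69.3 (0.67, adjusted p = 0.0262) while *Eif5a* itself did not pass. *Eef1a2* had the largest fitted value of the list, 1.27 (SE 1.19, adjusted p = 0.508), which rests on transgenic replicate 2 with 1029 counts, against 57 in replicate 1 and 216 and 107 in WT.

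Of the 22 regulators, 2 were called higher (9.09%) and 1 lower, with a median of 0.05. These counts are near the shares over all tested genes, 5.65% and 5.08%. *Pabpc1*, the poly(A)-binding protein that pairs with eIF4G, rose from 666.7 and 746.7 to 1434 and 1371 (0.99, SE 0.11, adjusted p = 0.0212). *Eif4ebp1*, an inhibitor of eIF4E, rose from 20.6 and 18.7 to 33.6 and 30.8 (0.71, SE 0.12, adjusted p = 0.0378). *Eif4ebp2*, a more abundant paralog of *Eif4ebp1*, went from 375.8 and 403.0 to 528.5 and 545.0 (0.46, SE 0.088, adjusted p = 0.0449), under the fold threshold. *Eif4ebp3* did not pass (0.38, adjusted p = 0.391). Thus *Eif4e* and *Eif4ebp1*, an inhibitor of its product, rose in the same samples. *Mtor*, the kinase that relieves this inhibition, fell from 63.7 and 72.3 to 33.2 and 37.5 (-0.94, SE 0.12, adjusted p = 0.0238). Of 6 recycling and tRNA delivery factors 1 rose, *Abce1*, the ribosome recycling ATPase (0.67, adjusted p = 0.0228).

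**Figure D4:**
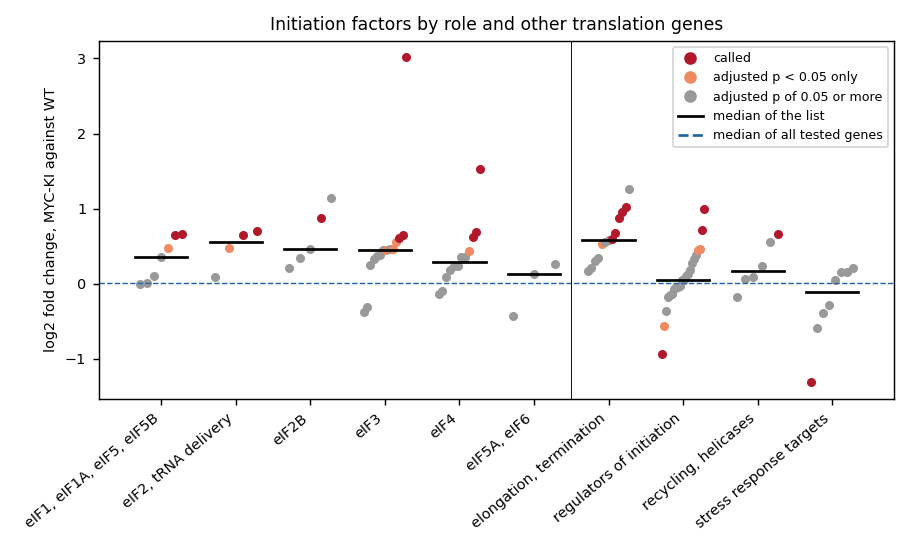
Log2 fold change (*c-Myc* transgenic over WT) of the tested genes of each role and pathway list, with 1 point per gene and a bar at the list's median. The elongation list (median 0.58) and the eIF2 list (0.56) lie highest, and the regulators (0.05) spread on both sides of 0.

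The cell types of the tissue moved with these results. Defining stomach markers were high in WT. The 7 parietal markers summed to 10682 and 10864 CPM in WT and to 198 and 264 in transgenic samples, with 7 of 7 called lower. Chief cell markers went from 84853 and 80511 to 1198 and 1518 (4 of 5 tested called lower, with *Pgc* at 80998 and 76704 of the WT sums), and surface mucous markers from 44889 and 53560 to 10957 and 17194 (4 of 4). All 10 proliferation markers were higher in both transgenic samples, 4 of them were called, and their sum rose from 453 and 419 to 686 and 612. The pancreatic acinar markers summed to 9989 and 8753 in WT and to 38.7 and 37.5 in transgenic samples, but *Pla2g1b* alone made up 9805 and 8607 of the WT sums, *Ctrl* had a fitted change in the other direction (2.95, adjusted p = 0.0892), and *Cpa1*, *Amy2a5* and *Prss2* were at 0 in every sample. The summed CPM of all members was 6853 and 6702 in WT and 8147 and 8312 in transgenic samples. The part of cell composition in the members' values was not tested, and in bulk tissue fewer cells of a type and less RNA per cell cannot be told apart.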

How the data were processed

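Per the labels, RNA of the stomach was sequenced in 2 samples each of WT and *Atp4b-cre;MycOE* mice, and the replicate numbers come from the sample titles. The authors deposited 1 table of raw read counts per gene symbol without normalization; the submitters' processing notes name HISAT2 and mm10, and the counting tool and annotation are not given in the sources used here. Counting by strand is not stated. The counts of both transgenic columns were re-sorted to the names in character-code order. The test was edgeR's (version 4.0.16, R 4.3.3, with TMM, filterByExpr, glmQLFit, glmQLFTest, no covariate, Benjamini-Hochberg adjustment over 17643 genes), and calls needed an adjusted p under 0.05 with an absolute log2 fold change above 0.585. SE is the absolute log2 fold change over the root of F. The common dispersion had a square root of 0.295. Replicates differed beyond counting noise (chi-square per degree of freedom 28.9 in WT and 97.9 in transgenic samples) and were kept apart. The labels do not say that each sample is a separate animal. The WT samples differ in sex-marking genes and so did not come from the same animal. The transgenic pair may come from the same animal, and p-values may then not measure the spread between transgenic animals. With 30260305 to 41463647 counts per sample, floors cover counting error only.

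Values of every sample are given for members past the adjusted p, for the most and least changed member of each role list, and for *Eif4e*, and of the pathway lists the called genes and the largest change are named. The members and lists were chosen with earlier results of these data known. Further genes named were chosen after their values were seen. Coordinates come from GENCODE M21 and RefSeq, both on GRCm38. The test was checked on simulated counts. Alternatives were DESeq2 1.42.0, other scalings and filters, the table as deposited, a replicate block, and leaving out each sample. The numbers do not pair the samples in the labels.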

Additional observations from a re-analysis of the deposited data

How the results depend on the processing

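Against 12 members called, 18 with an adjusted p under 0.05 and a median log2 fold change of 0.38, the count called was 2 at an absolute log2 fold change above 1 (*Eif3j2*, *Eif4e3*), 18 with no fold threshold, and 7 of 40 among rows that both orders leave in place, where 4.50% of 1355 genes were called higher. The table as deposited gave 20 called (16 higher, 4 lower), 35 on adjusted p and a median of 0.45, but 18580 of 22083 genes were called in that table, so its counts say nothing of the members. There the values of *Eif1a* (-6.45), *Eif1ad* (-6.33), *Eif1ax* (-13.91), *Eif1-ps1* (6.18) and *Eif4a1* (-0.13), which change place, had the opposite sign; these are fitted values of mismatched rows. DESeq2 gave 28 on adjusted p (27 higher, 1 lower) and 13 called. Library size alone gave 24 called, 35 on adjusted p and a median of 0.60, with the median of all genes at 0.23 and 75.5% of all calls higher. The fit with the replicate block gave 1 called and 1 on adjusted p (*Eif3j2*), with 114 genes called in all; deviations of same-numbered samples had a correlation of 0.063 over all tested genes and of 0.099 at a log2 CPM of 5 or more, and the labels tie no numbers together, so the numbers were not taken as pairs. Leaving out 1 sample gave 0 to 12 called, 0 to 15 on adjusted p and medians of 0.38 to 0.42; an arm of 1 sample was assumed to vary like the other. The lowest counts came without a WT replicate. With *Eif3j1* and *Eif3j2* summed, the value under *Eif3j1* was 0.60. *Eif3b* dropped under the fold threshold with upper quartile scaling (0.58), as did *Eif4a-ps4* (0.57). The cause of these shifts was not tested.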

Other observations

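Among 8 targets of the integrated stress response, which is set off when eIF2 alpha is phosphorylated, 1 was called lower and 0 higher in edgeR and in DESeq2. At an unadjusted edgeR p under 0.05, 0 were higher and 3 lower. Over all 17643 tested genes, edgeR called 5.65% higher and 5.08% lower, and 3130 and 2894 passed the unadjusted threshold. *Chac1*, a glutathione-degrading enzyme, fell from 8.73 and 9.18 CPM in WT to 3.01 and 4.19 in *c-Myc* transgenic samples (log2 fold change -1.31, SE 0.26, adjusted p = 0.0471 by edgeR). *Atf4*, the transcription factor of the response, had a log2 fold change of 0.05 (adjusted p = 0.813), and *Asns* and *Ddit3* had values of -0.38 and -0.58 (adjusted p = 0.0870 and 0.144).

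Of the 10 pseudogenes and other names, 5 were tested. *Eif3s6-ps1* had a log2 fold change of 1.88 (adjusted p = 0.128). *Eif1-ps3*, *Eif2c5*, *Eif3s6-ps3* and *Eif3s6-ps4* had 0 counts in all samples, and *Eif5al3-ps* had 1 and 0 in WT and 2 and 7 in transgenic samples; these 5, with *Eif4e1b*, were not tested.

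Of the further marker lists, squamous (10 tested), smooth muscle (6) and mucous neck markers (2) had 0 calls in edgeR and in DESeq2 and 0 at an unadjusted p under 0.05, with medians of 0.44, -0.69 and 0.33. Squamous markers summed to 2906 and 1691 CPM in WT and to 1048 and 4851 in transgenic samples. Of 7 leukocyte markers 3 were called lower in edgeR and in DESeq2 (median -0.28). Of 8 tested pancreatic acinar markers 3 were called lower in edgeR and 6 in DESeq2 (median -1.40).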
